A study of Mus musculus with 2 samples.

Results

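The numbered Zfp genes of the mouse retina were followed across a control and a Mettl14-cKO library. The family was chosen with earlier results of these data known. Its members were set by symbol, as every gene named Zfp and a 3-digit number whose first digit runs from 4 to 9. The files held 234 such symbols among 32285 genes, and 5 of them (Zfp992, Zfp993, Zfp433, Zfp758 and Zfp942) were left out by the rule, which left 229 genes. Of these, 206 had at least 30 unique molecular identifiers (UMIs, each a tagged RNA molecule) summed over both libraries and were measured, beside 16164 measured genes in all. The 23 genes under that number included 7 with no UMI. The measured genes nearest to the limit were Zfp986 (0 control and 39 Mettl14-cKO UMIs) and Zfp456 (24 and 15), and the nearest below it was Zfp473 (13 and 13).

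Retinas were taken at postnatal day 7 (P7), dissociated to single cells and profiled with the 10x Genomics 3' kit, which counts one tag from the 3' end of each captured RNA. The control library was Mettl14 fl/fl or fl/wt with no Cre named in its genotype, and the Mettl14-cKO library was Mettl14 fl/fl;Chx10-Egfp/Cre, so both carried floxed Mettl14. The Chx10 promoter drives a fusion of EGFP and Cre in retinal progenitors, and microglia, vessel cells and pericytes do not descend from those. Each genotype was 1 library; the number of animals, their sex and strain and any batch are not given in the labels, so genotype, animals, strain background and library cannot be told apart, and no test between genotypes was possible. Mettl14 itself stood at 27.1 CPM (UMIs of a gene per 1000000 UMIs) in the control library and 14.5 CPM in the Mettl14-cKO library, a ratio of 0.534 (95% counting interval 0.490 to 0.581). The deleted exons are not given in the labels, and a 3' tag outside them would not report the deletion.

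Mettl14 is the RNA-binding partner of Mettl3 in the complex that writes N6-methyladenosine (m6A) on RNA, a mark that often speeds the decay of a transcript. Most Zfp proteins carry a row of C2H2 zinc fingers, short folds in which a pair of cysteines and a pair of histidines hold a zinc ion and which read DNA base by base. Many also carry a KRAB domain, which recruits Trim28 and, through it, the histone methyltransferase Setdb1; such proteins are best known for silencing retroelements and imprinted loci. KRAB zinc finger genes multiply by tandem duplication and lie in clusters of near-copies, while zinc finger proteins without KRAB include regulators of neuronal development, RNA-binding proteins and ribosome factors.

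Promoter sequences are shown first because the higher genes include near-copies of each other, and some of them share short elements upstream of their starts. RefSeq promoters (GRCm38.p6) were matched by symbol for 185 of the 229 genes. Each line gives the 250 bases upstream of the RefSeq start, 5′ to 3′ on the gene's strand; capitals mark CCAATCA, a form of the promoter element read by the factor NF-Y, and CACTCTAACCCTAAGGG, the longest run of letters shared by the Zfp970 and Zfp808 windows (17 bases). Both motifs were chosen after the sequences had been seen, were searched on both strands, and do not overlap in these windows. Zfp982 has 3 RefSeq starts, of which 1 is shown.
Zfp970, chr2:177464492-177464741, plus strand: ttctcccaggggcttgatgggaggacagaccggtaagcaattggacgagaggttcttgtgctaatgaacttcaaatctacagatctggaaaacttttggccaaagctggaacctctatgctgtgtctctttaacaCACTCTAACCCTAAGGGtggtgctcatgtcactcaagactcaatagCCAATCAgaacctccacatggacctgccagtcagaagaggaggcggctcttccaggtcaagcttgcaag
Zfp808, chr13:62129640-62129889, plus strand: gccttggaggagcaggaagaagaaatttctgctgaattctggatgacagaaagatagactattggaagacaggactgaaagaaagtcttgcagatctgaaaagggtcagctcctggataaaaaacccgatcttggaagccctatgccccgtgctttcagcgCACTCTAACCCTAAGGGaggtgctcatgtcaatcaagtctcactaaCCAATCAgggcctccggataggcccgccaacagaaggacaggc
Zfp977, chr7:42592546-42592795, minus strand: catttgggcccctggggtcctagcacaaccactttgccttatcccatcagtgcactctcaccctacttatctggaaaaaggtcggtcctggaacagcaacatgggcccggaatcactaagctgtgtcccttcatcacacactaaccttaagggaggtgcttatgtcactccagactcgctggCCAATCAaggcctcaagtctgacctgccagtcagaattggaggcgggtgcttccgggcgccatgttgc
Zfp981, chr4:146514670-146514919, plus strand: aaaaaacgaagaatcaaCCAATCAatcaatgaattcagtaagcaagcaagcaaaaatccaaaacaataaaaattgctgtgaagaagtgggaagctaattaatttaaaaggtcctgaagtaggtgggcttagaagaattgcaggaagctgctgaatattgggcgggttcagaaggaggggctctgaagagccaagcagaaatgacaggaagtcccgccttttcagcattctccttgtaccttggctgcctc
Zfp982, chr4:147492167-147492416, plus strand: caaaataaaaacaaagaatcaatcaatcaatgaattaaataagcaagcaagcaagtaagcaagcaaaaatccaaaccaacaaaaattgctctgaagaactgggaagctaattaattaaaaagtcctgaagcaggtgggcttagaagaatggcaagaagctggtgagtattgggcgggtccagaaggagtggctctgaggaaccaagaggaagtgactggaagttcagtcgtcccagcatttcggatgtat
Zfp819, chr7:43606919-43607168, plus strand: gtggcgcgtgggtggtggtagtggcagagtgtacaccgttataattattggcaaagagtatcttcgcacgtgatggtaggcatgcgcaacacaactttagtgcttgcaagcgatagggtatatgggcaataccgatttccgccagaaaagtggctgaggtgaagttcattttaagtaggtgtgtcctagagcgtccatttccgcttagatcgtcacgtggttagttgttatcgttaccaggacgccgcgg

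Zfp970, Zfp808 and Zfp977 hold CCAATCA toward the 3′ end of the window, near their starts, and the first pair also holds the 17-base run ahead of it; in Zfp981 it lies at the far end of the window. Zfp981 and Zfp982, neighbours on chromosome 4, were identical at 203 of 250 bases (81.2%) in a global alignment, and the other pairs shown at 55.6% to 70.4%. CCAATCA occurred upstream of 52 of the 185 genes (28.1%), against 2265 of 27025 genes with RefSeq promoters (8.38%). A gene with several starts was counted once, as a carrier if any of its windows held the motif. CACTCTAACCCTAAGGG occurred in 8 of 185 (4.32%) against 18 of 27025 (0.0666%). Its carriers were Zfp808 on chromosome 13 and Zfp965, Zfp966, Zfp967, Zfp968, Zfp970, Zfp972 and Zfp973, all of a single gene neighbourhood on chromosome 2. Over the 185 genes the windows held a median of 10 CG dinucleotides, against 6 over all genes. In the 69 of them called higher the median was 9. Of the windows shown, that of Zfp819 had 17 and neither motif, and the others had 3 to 6. These are matches of letters and not binding sites.

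Over all barcodes with at least 1000 UMIs, the numbered Zfp genes stood higher in the Mettl14-cKO library far more often than lower. A gene was called higher or lower when its CPM levels in the libraries differed by at least 0.32 on the log2 scale (25% above the lower level) and their exact 95% Poisson intervals did not overlap, which covers counting error only and not the spread between animals. Of the 206 measured genes, 84 were higher (40.8%) and 15 lower (7.28%), whereas 19.5% of all measured genes were higher and 18.6% lower. Their median log2 ratio was 0.27, against -0.02 over all genes. The 84 include Zfp819, Zfp981, Zfp986, Zfp988 and Zfp990, which had at most 3 control UMIs. These genes were measured only through the Mettl14-cKO library and could only be called higher. The UMIs of all 229 genes together, on which no filter of low values acts, made up 4829 CPM in the control library (263414 UMIs, interval 4811 to 4848) and 5675 CPM in the Mettl14-cKO library (332034 UMIs, interval 5655 to 5694). The libraries differ in their mix of cell classes; when every class was given the same weight in both, 76 of the 84 higher calls and 6 of the 15 lower calls remained, and 7 genes were lower in all; over all genes that setting gave 14.7% higher and 18.8% lower. At a fold of 1.5 instead, 55 were higher and 3 lower, against 11.7% and 9.39% of all genes. With low-quality barcodes and Scrublet doublets removed, 85 were higher and 15 lower (19% and 18.9% of all genes), and with at least 2000 UMIs per barcode 82 and 17 (18.9% and 18.6%).

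**Figure D1:**
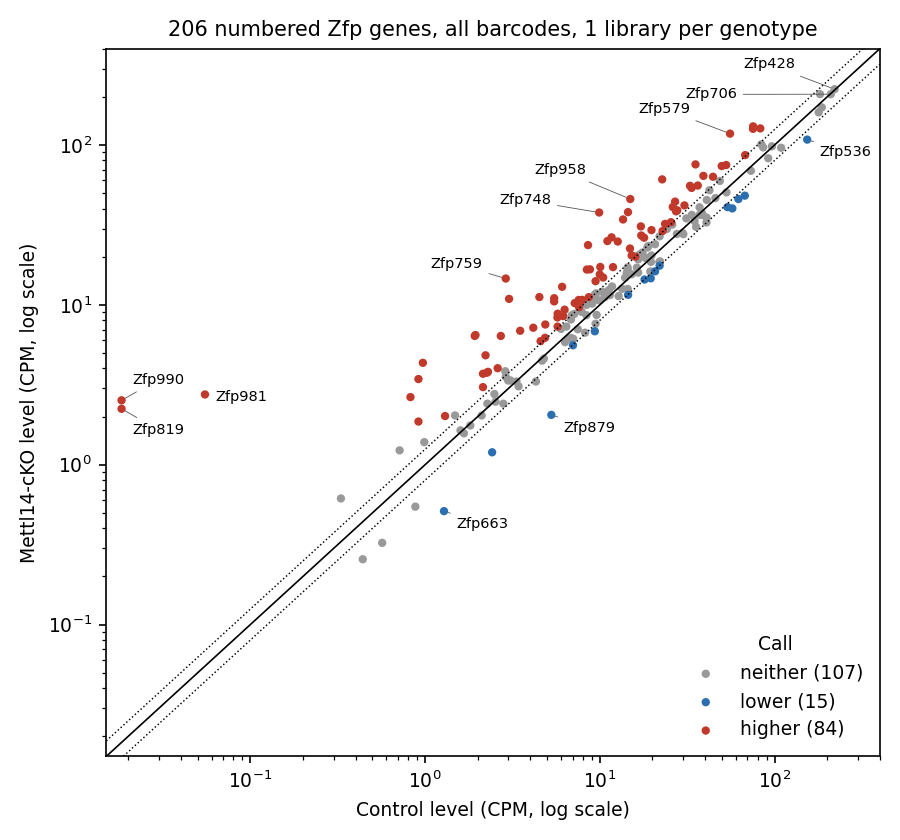
Level of each numbered Zfp gene in the control (x axis) and Mettl14-cKO library (y axis), both in CPM on log scales; each point is 1 gene, the solid line marks equal levels and the dotted lines the smallest ratio that can be called. The 84 higher genes (red) lie above the line and the 15 lower genes (blue) below it, and none of the 6 genes with the most UMIs is red; Zfp986 and Zfp988, at 0 control UMIs, cannot be drawn on a log scale, which leaves 204 points.

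The 84 higher genes had a median log2 ratio of 0.72 (quartiles 0.51 and 1.18), and 28 of them were at least 2-fold higher; 3 of the 15 lower genes were at least 2-fold lower. The share that was higher did not depend on a single range of abundance: it was 8 of 21 genes with 100 to under 300 UMIs, 25 of 51 with 300 to under 1000, and 49 of 128 with at least 1000 UMIs. Over all genes the same ranges gave 20.3%, 28.6% and 18.7%. A tag counted at the 3' end is uncertain where a near-copy has the same end. In 20 of the 206 measured genes, over 10% of the 91-base windows in the last 500 bases of the transcript also occurred in another gene, and 12 of the 84 higher genes were among them.

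Zfp990, Zfp819 and Zfp981 were close to undetected in the control retina and present in the Mettl14-cKO retina. Zfp990 had 1 control UMI and 148 Mettl14-cKO UMIs, a ratio of 138 with a counting interval of 24.4 to 5486. Zfp819, described as a KRAB zinc finger gene of pluripotent cells, had 1 and 131 UMIs (ratio 122, interval 21.5 to 4860). Zfp981 had 3 and 161 UMIs (ratio 50.0, interval 16.8 to 245). All were low even in the Mettl14-cKO library, at 2.53, 2.24 and 2.75 CPM, and all encode a KRAB pattern with 13, 9 and 7 predicted fingers. Of the windows at the 3' end, 2.44% were shared with another gene in Zfp990, none in Zfp819 and 29.5% in Zfp981, so the count of Zfp981 is uncertain.

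Among genes with at least 100 UMIs, the next highest were expressed in both libraries. Zfp759, a KRAB gene of chromosome 13 (67121660 to 67141787), stood at 2.90 and 14.6 CPM (158 and 855 UMIs), a ratio of 5.04 (4.25 to 6.02). Zfp977 on chromosome 7 stood at 0.972 and 4.34 CPM (ratio 4.47, interval 3.31 to 6.13), and Zfp748 on chromosome 13 at 9.92 and 37.8 CPM (ratio 3.81, 3.47 to 4.20). Zfp748 and Zfp759 share no 3' end window with another gene. Zfp808 stood at 50 and 201 UMIs (log2 1.91), Zfp960 at 165 and 638 (1.85), Zfp970 at 106 and 379 (1.74), Zfp991 at 105 and 374 (1.73), Zfp973 at 45 and 155 (1.68) and Zfp958 at 815 and 2687 (1.62). Every one of these carries a KRAB pattern; Zfp960 and Zfp991 share 74.9% and 65.1% of their 3' end windows with other genes and are uncertain for that reason.

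At the other end stood 3 KRAB genes of low level and several zinc finger genes without KRAB. Zfp879 had 288 control and 120 Mettl14-cKO UMIs (5.28 and 2.05 CPM, ratio 0.388, interval 0.311 to 0.482). Zfp663 had 70 and 30 UMIs (ratio 0.400, 0.251 to 0.621), and Zfp968 had 132 and 70 (ratio 0.494, 0.365 to 0.665), but the whole 3' end of Zfp968 (100%) also occurs in other genes. The other lowest genes differed less. Zfp654 stood at 57.3 and 40.1 CPM (log2 -0.51), Zfp516, a factor known from brown fat, at 67.6 and 48.2 CPM (-0.49), Zfp784 at 9.37 and 6.84 CPM (-0.45) and Zfp787 at 62.1 and 45.9 CPM (-0.44). With equal class weights Zfp516, Zfp654, Zfp784 and Zfp787 were between -0.26 and -0.29 on the log2 scale and no longer called.

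The 6 genes with the most UMIs were nearly level between the libraries, with 1 exception. Zfp428 had 12033 and 13078 UMIs (log2 0.02), Zfp706 11447 and 12161 (-0.01), Zfp644 9930 and 12177 (0.19), Zfp638 10167 and 10057 (-0.12) and Zfp444 9753 and 9365 (-0.16). Zfp536, which restrains neuronal differentiation in cell culture, was the exception, with 8388 and 6323 UMIs (153.8 and 108.1 CPM, log2 -0.51, ratio 0.703, interval 0.680 to 0.726). All 6 lack a KRAB pattern, and the counts of the 6 depend on how well each 3' end is captured, so levels are compared between libraries within a gene only.

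The predicted protein divided the family only loosely. A C2H2 pattern was found in 219 of the 228 genes with a coding model in GENCODE vM21, with a median of 11 fingers and a highest number of 33 in Zfp462, and a KRAB pattern in 130. Among measured genes with KRAB, 53 of 118 were higher and 6 lower (median log2 0.31). Among those with fingers and no KRAB, 29 of 83 were higher and 9 lower (0.18). The 53 include Zfp819, Zfp981, Zfp986, Zfp988 and Zfp990, which had at most 3 control UMIs. These genes were measured only through the Mettl14-cKO library and could only be called higher, which raises the share of the KRAB genes. Over all genes 19.5% were higher and 18.6% lower. By number of fingers, 7 of 25 genes with 1 to 4 were higher, 20 of 59 with 5 to 9, 35 of 75 with 10 to 14 and 20 of 42 with at least 15. KRAB zinc finger genes outside the symbol rule had 62 of 135 higher and 11 lower (0.28); whether the lists differ was not tested. Other genes with at least 3 fingers and no KRAB had 58 of 227 higher and 28 lower (0.06). These shares (25.6% and 12.3%) were nearer to those over all genes.

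Properties of the transcript followed the ratio weakly. Across the 206 genes, which are not independent replicates, Spearman's rho with the log2 ratio was 0.18 for the number of fingers, 0.02 for the length of the last exon, -0.08 for the length of the 3' untranslated region and -0.11 for the number of UMIs. For the density of GGACT, the DNA letters of the commonest m6A consensus, read on the transcript's strand, it was -0.15 over all 206, -0.23 over the 118 KRAB genes and 0.12 over the 88 others. Many C2H2 genes encode all fingers in one long last exon. Among genes whose last exon was under 1000 bases, 7 of 29 were higher, and from 1000 to under 2000 bases it was 24 of 50, from 2000 to under 3000 bases 28 of 66, and from 3000 bases 25 of 61. The same classes of all protein-coding genes had 18.3%, 20.3%, 21.8% and 21.7% higher.

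Ratios differed widely between stretches of the genome. Genes were joined into a neighbourhood where neighbours lay within 1000000 bases of each other, and 12 neighbourhoods held at least 5 measured genes. Of their 99 measured genes 44 were higher and 5 lower, against 40 and 10 of the 107 elsewhere. Over all genes 19.5% were higher and 18.6% lower. Some of the 44 passed the limit of 30 UMIs only through the Mettl14-cKO library, as given below. The neighbourhood with the highest median lay on chromosome 4 (145510759 to 147848366, mm10). There 8 of 9 measured genes were higher, 0 were lower, and the median log2 ratio was 1.73. The limit of 30 UMIs fixes part of that count, since 4 of the 9 had at most 3 control UMIs and passed only through the Mettl14-cKO library; of the other 5, 4 were higher, with a median of 1.18. Beside Zfp990, Zfp981 and Zfp991 these were Zfp986 (0 and 39 UMIs, at least 12.1-fold higher against a floor of 3 control counts), Zfp988 (0 and 67 UMIs, at least 20.8-fold higher), Zfp984 (148 and 374 UMIs), Zfp933 (637 and 1548) and Zfp982 (691 and 1457). Zfp979, in the same stretch, was level at 87 and 96 UMIs (log2 0.04), and 7 further genes there, among them Zfp978 and Zfp987, had under 30 UMIs. In Zfp933, Zfp982 and Zfp979 no 3' end window was shared with another gene, and in Zfp986 75.1% were.

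On chromosome 7 (41633203 to 43618285), 5 of 8 were higher and 1 lower, with a median of 1.13. Zfp819, Zfp977, Zfp719 (14.5 and 38.0 CPM), Zfp976 (4.51 and 11.2) and Zfp975 (5.48 and 10.5) were higher, Zfp788 was lower (18.0 and 14.4), and Zfp715 and Zfp658 were neither. On chromosome 2 (174643534 to 178078476), 4 of 8 were higher and 1 lower, with a median of 0.95. Zfp970, Zfp973, Zfp971 (8.56 and 23.7 CPM) and Zfp966 (2.22 and 4.84) were the higher ones and Zfp968 the lower, while Zfp931 stood at 19.2 and 19.7 CPM. On chromosome 13 (67038596 to 67792512), 6 of 12 were higher (median 0.56), led by Zfp759 and Zfp748, and on chromosome 17 (21383748 to 22867134) 7 of 12 (median 0.53), led by Zfp994 at 13.6 and 34.2 CPM. Other clusters of KRAB genes had medians nearer to 0. On chromosome 8 (69209038 to 69791178), Zfp964 alone of 6 KRAB genes was higher (191 and 403 UMIs) and the median was -0.09. On chromosome 7 (29816114 to 30090527), none of 5 genes was called in either direction (median 0.06).

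**Figure D2:**
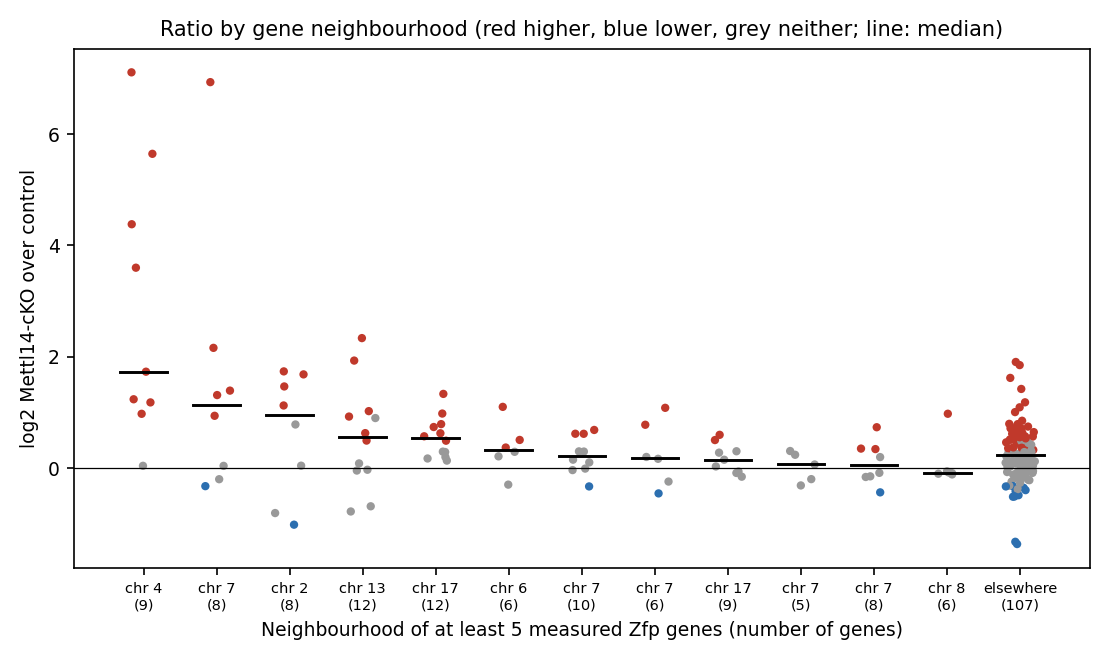
Log2 ratio of Mettl14-cKO over control (y axis) for each measured numbered Zfp gene, by gene neighbourhood with at least 5 measured genes (x axis, with the number of genes) and for the 107 genes elsewhere; points are genes, black lines medians, red higher, blue lower and grey neither. The chromosome 4 neighbourhood at the left has the highest median (1.73, or 1.18 without the 4 genes that passed the limit of 30 UMIs only through the Mettl14-cKO library), and the chromosome 8 neighbourhood has the lowest (-0.09). Zfp819, on chromosome 7, passed the limit in the same way as those of chromosome 4.

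The promoter elements did not divide the genes in a single way. Of measured genes with CCAATCA upstream, 21 of 47 were higher and 3 lower (median log2 0.30), and of those without it 48 of 123 and 8 (0.28). Over all genes 19.5% were higher and 18.6% lower. Of the 7 measured carriers of CACTCTAACCCTAAGGG, 4 were higher and 1 lower (median 1.12), against 65 of 163 higher and 10 lower without it (0.25). Apart from Zfp808 those carriers are the chromosome 2 genes already listed, which are near-copies and not independent, and the run was picked from promoters of genes with high ratios.

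Cells were next gated into classes by marker genes, none of which is a numbered Zfp gene. A barcode was placed in the class with the most markers detected at or above their mean share (at least 3, leading the next class by at least 1), and cells with 4 or more cone markers were cone-like. The gate is a range and not a type: cells at the limit (exactly 3 markers, or a lead of 1 at most) numbered 208 of 4472 control and 322 of 3482 Mettl14-cKO rod-like cells, but 201 of 277 and 581 of 1035 neurogenic progenitor-like cells, and 1309 and 2392 cells were in no class. Rod-like cells had a median of 8 rod markers and Müller glia-like cells 8 of their own, beside 1 of the next class. RNA of other cells was counted in each class. The rod gene Gngt1 stood at 6132 and 2813 CPM in rod-like cells and still at 293 and 135 CPM in amacrine-like cells. In cone-like cells Gngt1 stood at 6470 and 3541 CPM, above the rod-like level in both libraries. Their median depth was 11225.5 and 9726 UMIs per cell, against 2201.5 and 2263.5 in rod-like cells. The gate does not set cone markers against rod markers. The cone-like class may therefore include rods and is not a separate check on the rod-like class. The part of RNA from other cells in the Zfp ratios was not tested.

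The family stood higher in each of the 6 classes with at least 200 cells in both libraries. In rod-like cells 66 of 191 measured genes were higher and 15 lower (16.2% and 18.4% of all genes), and in cone-like cells 42 of 173 and 7 (12.9% and 14.8%). In bipolar-like cells 65 of 190 were higher and 5 lower (14.8% and 16.6%), and in amacrine-like cells 48 of 188 and 2 (13.2% and 9.2%). In Müller glia-like cells 61 of 185 were higher and 2 lower (15% and 12.1%), and in neurogenic progenitor-like cells 26 of 158 and 2 (7.66% and 8.5%). The medians of the log2 ratio were 0.23, 0.17, 0.35, 0.29, 0.39 and 0.35 in that order, against -0.05, -0.06, -0.05, 0.04, 0.03 and -0.04 over all genes. Neurogenic progenitor-like cells rested on 277 control cells, and with a gate that asks for a lead of 2 markers 14 of 132 genes were higher and 1 lower (5.68% and 5.52% of all genes). Some genes were measured in a class only through the Mettl14-cKO library and could only be called higher. Examples are Zfp819 in rod-like, Zfp981 and Zfp990 in amacrine-like, and Zfp442 and Zfp759 in neurogenic progenitor-like cells. The last class had 1035 Mettl14-cKO cells, which weighs its limit toward that library. The summed levels given next do not rest on that limit.

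**Figure D3:**
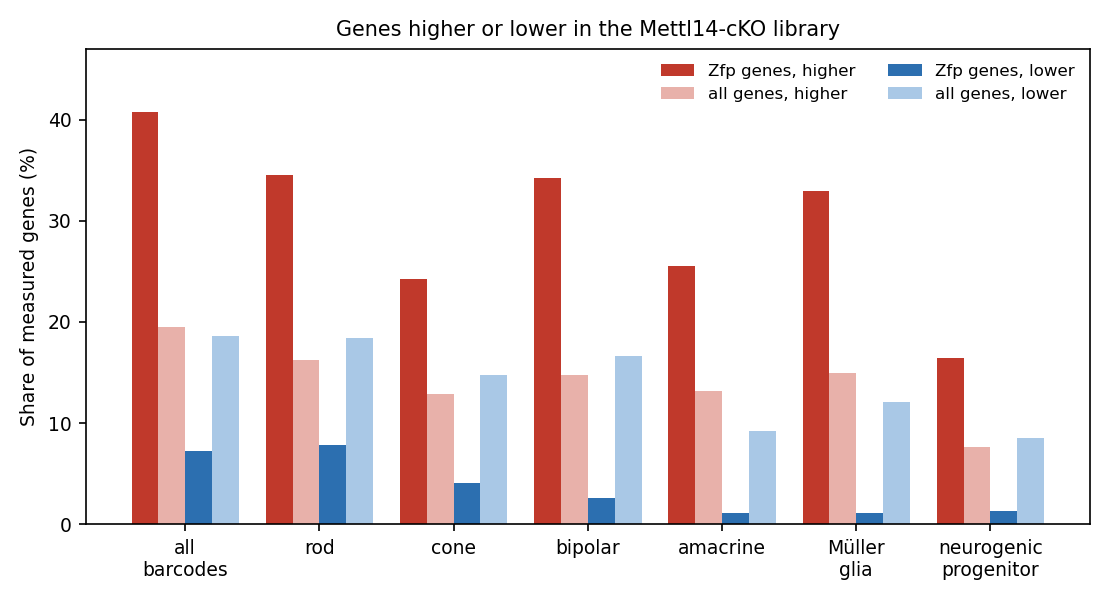
Share of measured genes (y axis, percent) called higher (red) or lower (blue) in the Mettl14-cKO library over all barcodes and in 6 marker-gated classes (x axis); dark bars are the numbered Zfp genes and pale bars all measured genes. In each of the 7 groups the dark red bar is the taller red bar and the dark blue bar the shorter blue bar, from 40.8% against 19.5% over all barcodes to 16.5% against 7.66% in neurogenic progenitor-like cells. Some genes were measured only through the Mettl14-cKO library and could only be called higher.

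By class, the ratio of the summed level of all 229 genes ranged from 1.30 in Müller glia-like to 1.04 in ganglion-like cells among the 7 classes with over 100 cells in both libraries. In Müller glia-like cells it was 4123 CPM in the control and 5351 CPM in the Mettl14-cKO library (ratio 1.30, counting interval 1.28 to 1.32), and in bipolar-like cells 5131 and 6480 CPM (1.263, 1.246 to 1.279). Neurogenic progenitor-like cells had 5043 and 6101 CPM (1.21, 1.174 to 1.247), amacrine-like cells 4731 and 5575 CPM (1.18, 1.161 to 1.197), rod-like cells 5142 and 5887 CPM (1.14, 1.13 to 1.16) and cone-like cells 5141 and 5719 CPM (1.11, 1.10 to 1.13). Ganglion-like cells, which are among the first neurons born in the retina, were at 3562 and 3718 CPM (1.04, 1.01 to 1.07); 6 of their 124 measured genes were higher (5.47% of all genes) and none lower (3.84%), from 196 and 310 cells. Horizontal-like cells had 4 of 56 genes higher and none lower (4.35% and 3.24% of all genes), at 3069 and 3720 CPM. Cycling progenitor-like cells, 24 and 128 in number, had 3446 and 4610 CPM, with 2 of 36 genes higher and none lower (8.49% and 6.3%).

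Cells that do not descend from retinal progenitors served as the nearest internal comparison. Microglia-, endothelium- and pericyte-like cells together, 75 control and 139 Mettl14-cKO cells, had 2461 and 2473 CPM of numbered Zfp genes (ratio 1.01, interval 0.942 to 1.07). None of their 38 measured genes was higher and 1, Zfp938, was lower (20 and 14 UMIs), against 3.63% and 5.62% of all genes. Microglia-like cells gave 209711 control and 652991 Mettl14-cKO UMIs, endothelium-like cells 177777 and 269516, and pericyte-like cells 180631 and 171280. The mix of these classes thus differs between the libraries, and the pooled ratio can move with it. Microglia-like cells alone were at 2136 and 2202 CPM (ratio 1.03, 0.926 to 1.15), endothelium-like cells at 2784 and 2723 CPM (0.978, 0.872 to 1.10) and pericyte-like cells at 2519 and 3112 CPM (1.24, 1.09 to 1.403). None of the 12, 8 and 4 genes measured in these classes was called; over all genes 2.21% were higher and 2.45% lower in microglia-, 3.38% and 3.84% in endothelium- and 1.44% and 2.98% in pericyte-like cells. At this depth most single genes could not be measured, and whether the ratio differs from that of the neural classes was not tested. Zfp981, Zfp990 and Zfp819 had 1, 0 and 0 UMIs in these Mettl14-cKO cells. Zfp748 had 4 and 6 UMIs and Zfp958 had 7 and 7.

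**Figure D4:**
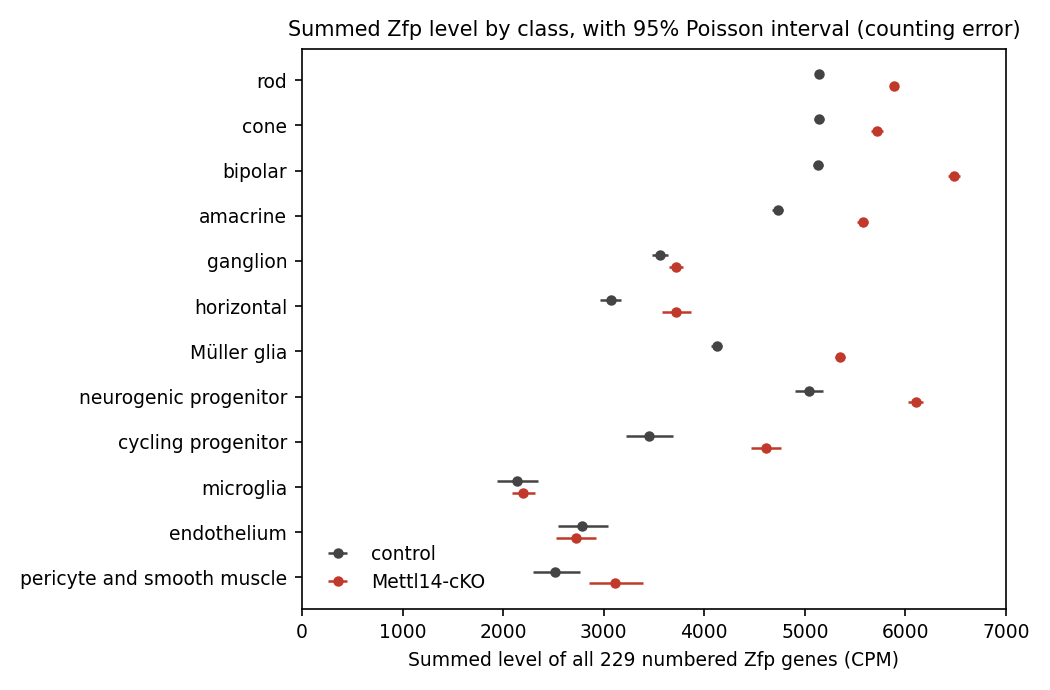
Summed level of all 229 numbered Zfp genes (x axis, CPM) in 12 marker-gated classes (y axis) of the control (dark grey) and Mettl14-cKO library (red); points are the level of 1 library and bars its exact 95% Poisson interval, which covers counting error only. The red point lies to the right in the neural and glial classes, as in bipolar-like cells at 5131 and 6480 CPM. In microglia-like (2136 and 2202 CPM) and endothelium-like cells (2784 and 2723 CPM) the points overlap. The red point also lies to the right in pericyte-like cells (2519 and 3112 CPM), with bars that do not overlap.

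The difference was also present per cell at a fixed depth. Each cell was thinned to 1500 UMIs, leaving out shallower cells, and the cells with at least 10 Zfp UMIs were counted. The share was 23.6% of 1892 control and 50.9% of 1433 Mettl14-cKO bipolar-like cells, 10.8% of 1233 and 32.7% of 2001 Müller glia-like cells, and 23.5% of 3538 and 38.5% of 2835 rod-like cells. In microglia-like cells it was 3.23% of 31 and 4.598% of 87. The median number of Zfp UMIs per thinned cell was 7 and 10 in bipolar-like, 6 and 8 in Müller glia-like and 7 and 9 in rod-like cells, and 2 and 3 in microglia-like cells. Cells of one library are not replicates, so these shares describe the libraries. Shallow barcodes of 500 to under 1000 UMIs, which enter no other count, had 13 of 117 measured genes higher and 1 lower (7.88% and 7.36% of all genes).

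Among the 156 genes measured in all 6 classes, 18 were higher in every one (11.5%, against 3.55% of all genes measured in every class) and 65 in none (41.7%, against 67.7% of all genes). None was lower in every class (0.836% of all genes). The 18 were Zfp442, Zfp467, Zfp579, Zfp606, Zfp617, Zfp618, Zfp637, Zfp639, Zfp719, Zfp748, Zfp759, Zfp771, Zfp873, Zfp933, Zfp958, Zfp971, Zfp976 and Zfp994; this list was drawn from the calls. They lay on 9 chromosomes, 12 of them carried a KRAB pattern, and none shared over 10% of its 3' end windows with another gene. Their lowest log2 ratio was 0.49 in rod-like, 0.38 in cone-like, 0.51 in bipolar-like, 0.36 in amacrine-like, 0.44 in Müller glia-like and 0.45 in neurogenic progenitor-like cells. The classes of a library share its animals and its preparation, so the 6 calls of a gene are not independent. In neurogenic progenitor-like cells, 201 of 277 control cells lay at the limit of the gate. With the stricter gate fewer than 18 genes were higher in that class, so not all of the 18 kept their call there. Zfp442 and Zfp759 were measured in that class only through the Mettl14-cKO library.

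Zfp579, Zfp748 and Zfp759 show the pattern in values; Zfp579 was picked from the 18 for its level. It stood at 54.3 and 127 CPM in rod-like, 54.2 and 119 in cone-like, 77.7 and 173 in bipolar-like, 59.4 and 128 in amacrine-like, 36.6 and 80.7 in Müller glia-like and 50.5 and 117 CPM in neurogenic progenitor-like cells, with log2 ratios from 1.11 to 1.23. The Mettl14-cKO level was above the highest control level in every class. Zfp748 stood at 8.99 to 12.1 CPM in the 6 control classes and at 22.2 to 49.3 CPM in the Mettl14-cKO classes, which do not overlap. Zfp759 was at 2.10 to 3.52 CPM in 5 control classes and at 9.78 to 17.7 CPM in the same Mettl14-cKO classes; in neurogenic progenitor-like cells it had 0 and 95 UMIs, at least 7.30-fold higher against a floor of 3 counts. Zfp958 stood at 14.6 and 69.0 CPM in bipolar-like cells (log2 2.24) and at 17.7 and 40.3 CPM in rod-like cells (1.19).

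The genes near 0 in the control had their UMIs in different classes. Zfp819 was highest in rod-like cells, with 0 and 48 UMIs (at least 20.6-fold higher against a floor of 3 control counts). The floor sets that fold, and the lower limit of its counting interval was 16.1-fold. In amacrine-like cells Zfp819 had 5 Mettl14-cKO UMIs. Zfp981 and Zfp990 were highest in amacrine-like cells, with 0 and 47 UMIs (at least 11.7-fold) and 0 and 42 UMIs (at least 10.5-fold), against the same floor. Zfp990 had 6 Mettl14-cKO UMIs in Müller glia-like cells, where Zfp981 had 29. As a level, Zfp819 was at 3.53 CPM in rod-like and 0.661 CPM in amacrine-like cells of the Mettl14-cKO library, whereas Zfp981 was at 1.32 and 6.21 CPM.

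Several genes had their highest ratios in photoreceptors. Zfp467, known for promoting fat over bone formation in stromal cells, stood at 15.1 and 66.8 CPM in rod-like (log2 2.14) and 14.4 and 71.3 CPM in cone-like cells (2.31), and at 82.3 and 146 CPM in bipolar-like cells (0.82). In neurogenic progenitor-like cells it stood at 15.2 and 42.4 CPM. Zfp995 was higher in rod-, cone- and bipolar-like cells (1.43, 2.05 and 0.80) and not called in amacrine- (-0.03), Müller glia- (-0.09) or neurogenic progenitor-like cells (-0.29). Zfp984 was higher in the same 3 classes (1.82, 1.98 and 1.69) and had log2 ratios of 0.59 and 0.41, not called, in amacrine- and Müller glia-like cells. Zfp442 was higher in all 6, most in neurogenic progenitor-like cells (4 and 157 UMIs, log2 3.18), and Zfp960 in 5. Zfp970 had its highest called ratio in amacrine-like cells (1.23 and 6.74 CPM, log2 2.45) and Zfp977 in Müller glia-like cells (0.876 and 5.56 CPM, 2.67). With Gngt1 also counted outside photoreceptors, low levels there are uncertain; whether the ratios differ between classes was not tested.

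**Figure D5:**
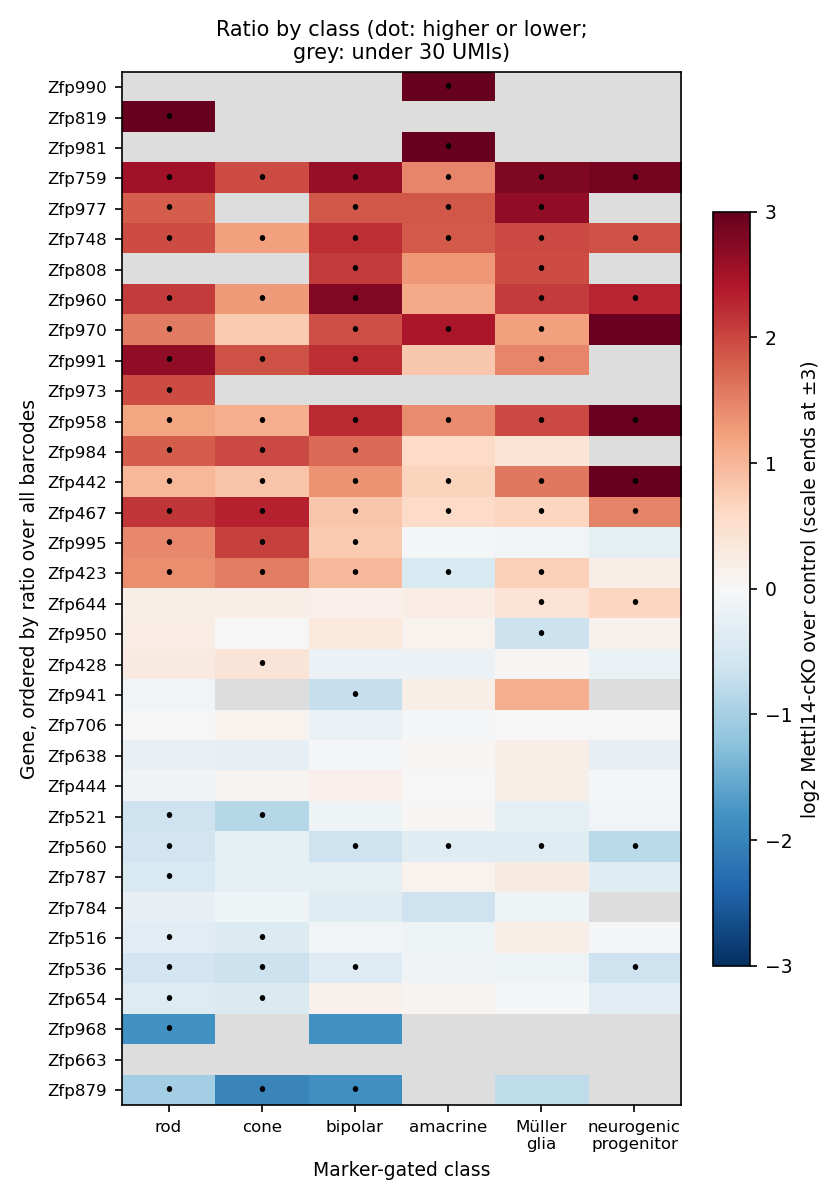
Log2 ratio of Mettl14-cKO over control (colour; blue lower, red higher, scale ending at 3 in either direction) for 34 numbered Zfp genes (y axis, ordered by their ratio over all barcodes) in 6 marker-gated classes (x axis); dots mark calls, grey marks under 30 UMIs, and genes at 0 control UMIs are drawn at the floor of 3 counts. Zfp759 and Zfp748 are red with a dot in all 6 columns, Zfp560 is blue with a dot in 5, and Zfp423 is red in rod-, cone-, bipolar- and Müller glia-like cells and blue in amacrine-like cells.

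Of the 156 genes measured in all 6 classes, 91 were higher in at least 1 (58.3%, against 32.3% of all genes) and 16 lower in at least 1 (10.3%, against 36.7%). Zfp560, a KRAB gene, was lower in 5 of the 6 classes, at 94.99 and 54.5 CPM in neurogenic progenitor-like cells (log2 -0.80), 67.5 and 43.7 in bipolar-like (-0.63), 45.2 and 30.5 in rod-like (-0.57), 46.9 and 36.4 in amacrine-like (-0.37) and 65.9 and 51.3 CPM in Müller glia-like cells (-0.36). In cone-like cells it was at 42.1 and 35.2 CPM and not called. Zfp536 was lower in rod- (212 and 143 CPM), cone- (246 and 156), bipolar- (113 and 86.0) and neurogenic progenitor-like cells (185 and 121), and near level in amacrine- (47.2 and 43.6) and Müller glia-like cells (159 and 142). Zfp879 was lower in rod-, cone- and bipolar-like cells, with 122 and 24 UMIs in the last (log2 -1.85). Zfp521, a regulator of early neural differentiation, was lower in rod- (19.2 and 12.5 CPM) and cone-like cells (20.5 and 11.4) and stood at 34.3 and 31.4 CPM in bipolar-like cells. Zfp941 was lower in bipolar-like cells (24.7 and 15.3 CPM) and Zfp950 in Müller glia-like cells (76.7 and 49.0 CPM).

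Of 29 genes listed for a known role, 28 were measured; 6 were higher, 4 lower and 18 neither, shares near those over all genes (19.5% and 18.6%). Genes tied to eye disease in people had log2 ratios between 0.05 and 0.36. Zfp408, whose human counterpart is mutated in retinal vessel disease and retinitis pigmentosa, stood at 4.86 and 6.22 CPM (log2 0.36, higher, but 0.32 and not called with doublets removed). Zfp513, also linked to retinitis pigmentosa, was at 19.7 and 20.4 CPM (0.05), and Zfp644, linked to high myopia, at 182 and 208 CPM (0.19). Zfp503 and Zfp703, corepressors of the NET family that act in closure of the optic fissure, stood at 14.4 and 17.2 CPM (0.25) and 2.99 and 3.37 CPM (0.17), and were not called.

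Developmental regulators were called in both directions. Zfp423, a partner of Smad and Ebf factors, was higher over all barcodes (11.9 and 17.2 CPM, log2 0.53), and Zfp521, its close relative, lower (20.7 and 16.2 CPM, -0.35). Zfp608 was higher at 52.9 and 74.9 CPM (0.50), and Zfp609, its paralogue, which works with cohesin loading and Integrator in neural progenitors, was at 37.2 and 40.8 CPM (0.13). Zfp462 stood at 84.0 and 101.0 CPM over all barcodes (0.27, not called) and was higher in bipolar-, amacrine- and Müller glia-like cells (0.33, 0.41 and 0.55). Zfp711, on the X chromosome and tied to intellectual disability, was at 18.7 and 22.9 CPM (0.29), Zfp746, the repressor also named PARIS, at 26.0 and 31.8 CPM (0.29), and Zfp652, a corepressor, at 73.2 and 69.0 CPM (-0.09). With equal class weights Zfp423 (0.28) and Zfp521 (-0.30) were no longer called.

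Of 4 measured KRAB genes of the role list with known retroelement or imprinting targets, 1 was called. Zfp809, which silences retroviruses through their primer binding site in embryonic stem cells, was higher at 5.48 and 11.0 CPM (299 and 644 UMIs, ratio 2.01, interval 1.75 to 2.31), with calls in rod-, cone- and Müller glia-like cells. Zfp932, which binds endogenous retroviruses, stood at 16.6 and 19.3 CPM (0.22, not called), with 22.7% of its 3' end windows shared. Zfp568, the repressor of a placental Igf2 transcript, was at 7.04 and 6.14 CPM (-0.20), and Zfp445, which protects imprints together with Zfp57, at 109 and 96.1 CPM (-0.18); neither was called. Zfp708 had 4 and 1 UMIs, too few to measure.

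Proteins that act outside classical promoter repression made up the rest. Zfp451, a SUMO ligase, was higher at 75.4 and 130.8 CPM (ratio 1.73, interval 1.67 to 1.80) and in 5 of 6 classes; in amacrine-like cells it stood at 96.4 and 117 CPM and was not called. Zfp598, the ubiquitin ligase that senses collided ribosomes, was lower at 19.6 and 14.7 CPM (-0.42). The ribosome assembly factors Zfp593 and Zfp622 stood at 30.5 and 41.9 CPM (0.46, higher, but 0.26 and not called with equal class weights) and 38.7 and 36.5 CPM (-0.08). Zfp687 was lower at 22.0 and 17.6 CPM (-0.32), a call lost under 4 of the 7 alternative settings applied to it, and its partner Zfp592 was at 19.5 and 16.2 CPM (-0.27). Zfp410, the activator of Chd4, was at 19.6 and 18.6 CPM (-0.08), and Chd4 at 386 and 400.2 CPM. Zfp692 was at 10.9 and 11.9 CPM (0.12).

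The partners of KRAB proteins were mostly near level. Of 22 measured genes of Trim28 silencing and heterochromatin, over all barcodes 3 were called higher and 0 lower (19.5% and 18.6% of all genes); the median of their log2 ratios was 0.05. Setdb1 was higher at 41.2 and 62.7 CPM (ratio 1.52, interval 1.44 to 1.60), Zfp57 at 23.1 and 35.4 CPM (1.54) and Uhrf1, a reader of hemimethylated DNA found in dividing cells, at 0.697 and 2.29 CPM (3.29). Uhrf1 rested on 38 and 134 UMIs, and cycling progenitor-like cells numbered 24 and 128. In Müller glia-like cells, the only large class where Uhrf1 was measured, it had 16 and 44 UMIs and was not called. Whether its ratio follows the mix of cells was not tested. Trim28 stood at 91.7 and 78.9 CPM (ratio 0.861) and was not called. By class, Setdb1 was higher in 5 of the 6, up to 38.4 and 75.7 CPM in Müller glia-like cells, and Trim28 was lower in bipolar-like cells (122 and 91.7 CPM). In bipolar-like cells 3 of 21 partners were higher and 6 lower (14.8% and 16.6% of all genes), in Müller glia-like cells 3 of 22 and 0 (15% and 12.1%) and in amacrine-like cells 4 of 21 and 1 (13.2% and 9.2%). The other classes had 2 higher and 2 lower (rod-like), 1 and 1 (cone-like) and 0 and 2 (neurogenic progenitor-like), of 21 each, against 16.2% and 18.4%, 12.9% and 14.8%, and 7.66% and 8.5% of all genes.

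The 5 symbols that the rule leaves out were all higher: Zfp992 (2.77 and 35.7 CPM), Zfp993 (0.642 and 7.02), Zfp433 (3.89 and 23.6), Zfp758 (10.7 and 56.3) and Zfp942 (13.1 and 69.7). They enter no count or sum above.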

How the data were processed

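Dissociated retina of 1 control and 1 Mettl14-cKO library was analysed from the UMI count matrices that the authors deposited, made with Cell Ranger 6.1.1 on mm10 per the submitters' processing notes; strand setting, intronic counting and pooling of animals are not given in the sources used here. Barcodes with at least 1000 UMIs were kept: 11426 control (54544552 UMIs, median 3487) and 13502 Mettl14-cKO (58511730, median 3212), of which 39 barcode sequences occur in both. Of the UMIs, 3.91% and 2.99% were mitochondrial and 9.61% and 11.6% ribosomal. Scrublet, run in scanpy 1.11.5, called 6.84% and 9.35% of barcodes doublets, removed only as an alternative.

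For each library and class, a gene's summed UMIs were divided by the UMIs of all genes (CPM), with exact 95% Poisson intervals and exact conditional intervals of the ratio (scipy 1.17.1). A gene at 0 entered ratios and medians at a floor of 3 counts. Intervals cover counting error only. The call rule was tried on simulated counts that held counting error only. That trial cannot cover differences between animals, libraries or cell mix, nor ratios near the smallest that can be called. Fingers and KRAB were predicted by pattern from translated GENCODE vM21 models, the annotation of the same build as the files; promoters are RefSeq, GRCm38.p6. The genes named were the 12 highest and 8 lowest ratios with at least 100 UMIs, the 6 with most UMIs, the 3 highest and 2 lowest calls per class, and genes of known role; the 18 higher in every class, the genes of the neighbourhoods and Zfp938 were named after their values were seen. The family, gene lists and settings were chosen with earlier results of these data known. Alternatives varied the barcode and gene filters, doublets, denominator, fold, gate and class weights.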

Additional observations from a re-analysis of the deposited data

Results flagged for a closer look

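Opposite calls between classes were found for 2 genes, and the differences were not tested. Zfp423 was higher in rod-like (log2 1.41, 92 and 189 UMIs), cone-like (1.54), bipolar-like (0.962) and Müller glia-like cells (0.714, 74 and 172 UMIs) and lower in amacrine-like cells (-0.465, 175 and 169 UMIs), where its control level was the highest of the 6 classes (30.8 CPM). In the 3 classes with the lowest control level the Mettl14-cKO level stayed under that of amacrine-like cells (22.3 CPM). Zfp445 was lower in rod-like (-0.404, 150 and 113 CPM) and cone-like cells (-0.338, 158 and 125 CPM) and higher in Müller glia-like cells (0.381, 63.6 and 82.8 CPM); its level in photoreceptors was above that in glia in both libraries.

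Barcodes of 500 to under 1000 UMIs, which enter no other comparison, carried the difference too. The summed level of the 229 genes was 4813 CPM in the control and 5668 CPM in the Mettl14-cKO library there, a ratio of 1.18 (counting interval 1.14 to 1.22), with 13 of 117 measured genes higher and 1 lower (7.88% and 7.36% of all genes). These barcodes may hold small cells, damaged cells or free RNA, which was not tested.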

How the results depend on the processing

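No paired analysis was possible because each genotype is 1 library and the labels carry no replicate numbers. Of 156 recomputed summary values, 142 stayed within 1.5 times the count reported, or within their spread for medians and sums, and none changed direction. With a fold of 1.5, 55 genes were higher and 3 lower over all barcodes, and 5, 3, 3, 0 and 1 were lower in rod-, cone-, bipolar-, amacrine- and Müller glia-like cells. With equal class weights, 7 were lower over all barcodes. With doublets removed, 1 gene was lower in amacrine-like and 1 in Müller glia-like cells, and with at least 2000 UMIs per barcode 1 in amacrine-like cells. With the stricter gate, none (0) was lower in amacrine-like cells, and 14 were higher and 1 lower in neurogenic progenitor-like cells. The cause was not tested. The fold of 1.5 and equal class weights aside, the settings run over all barcodes kept at least 80 of the 84 higher and 11 of the 15 lower calls. The denominator without mitochondrial and ribosomal genes, and that by median of ratios, each kept 84 and 11. Depth limits genes near the floor, classes of under 100 cells, and genes whose 3' ends are shared by near-copies.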

Other observations

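Other families of zinc finger genes, described by symbol, had smaller shares of higher genes than the numbered Zfp genes in some cases and not in others, and the differences were not tested. Zfp symbols outside the rule had 52 of 156 higher and 11 lower (median log2 0.13), and Zkscan genes, which carry a SCAN domain beside KRAB, 5 of 11 and 2 (0.32). Of Zbtb genes, which carry a BTB domain before their fingers, 12 of 41 were higher and 4 lower (0.17). Zscan genes, with a SCAN domain and mostly without KRAB, had 2 of 9 higher and 3 lower (-0.22). Klf genes had 2 of 15 higher and 1 lower (0.04), and Sp genes 1 of 5 and 1 (-0.13). Over all genes 19.5% were higher and 18.6% lower.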
